A study of Drosophila melanogaster with 110 samples.

Results

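The genes described here are the 7 that encode proteins at the centre of the study: rump, whose RNA was depleted, crol, cg and pho, which encode DNA-binding proteins of Polycomb response elements (PREs), and su(Hw), mod(mdg4) and Cp190, which encode the gypsy insulator core complex. They were taken by name as 7 of 17257 annotated protein-coding and non-coding genes, and every ChIP-seq peak that overlapped the span of a gene or the 2 kb upstream of it by at least 1 bp was counted to that gene. The windows held 97 of the 69274 regions that result when overlapping peaks of all libraries of a target are merged.

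The data are peak lists of Kc167 cells, a hemocyte line derived from Drosophila embryos, harvested 4 days after transfection with dsRNA against rump (rump RNAi) or against GFP (control). Chromatin of each condition was immunoprecipitated for 13 targets: Crol, Cg, Pho, Su(Hw), Mod(mdg4), CP190, CTCF, the PRC1 subunits Ph, Psc and Pc, the PRC2 subunits E(z) and Su(z)12, and trimethylated histone H3 lysine 27 (H3K27me3). Each target had 3 rump RNAi and 3 control libraries, apart from H3K27me3 with 2 and 2, which gives 76 lists of 214 to 11117 peaks. The titles call the libraries biological replicates of this cell line, and since the lists hold no RNA values, the depletion of rump could not be checked in them.

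PREs are DNA elements to which sequence-specific proteins bring the Polycomb complexes, PRC2 then methylates H3K27, and PRC1 gathers on the marked chromatin. Pho is the fly homologue of the mammalian factor YY1 and recognizes a GCCAT core, Cg (Combgap) is a zinc finger protein that binds GT repeats at PREs, and Crol (Crooked legs) is a zinc finger protein first known from the response to ecdysone. Su(Hw) binds the insulator of the gypsy retrotransposon through its zinc fingers and works with Mod(mdg4) and CP190, which both carry a BTB domain. Rump is a homologue of hnRNP M, an RNA-binding protein, and was not itself a target in these lists.

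Sequences of sites at which these proteins sat on each other's genes follow, all as the plus strand of dm6. Capitals mark GCCAT, the core of the Pho motif, GAGAG, the motif of GAGA factor, GTGTGT, a short GT repeat, and TGCATA, the centre of the Su(Hw) motif, each on either strand. The first is the whole first intron of rump under the Pho peak (chr3R:9510017-9510162), the second lies upstream of mod(mdg4) up to the start of the neighbouring gene tin, under the peaks of Pho, Cg, Crol and 4 Polycomb subunits (chr3R:21378800-21378976), the third is 30 bases of an untranslated exon at the summit of Su(Hw) on its own gene (chr3R:14308093-14308122), and the fourth is the intron of crol under a Crol peak (chr2L:11804665-11804864). Another, from a coding exon of crol (chr2L:11802945-11803144), is shown because summits of 6 targets met in it.
rump first intron: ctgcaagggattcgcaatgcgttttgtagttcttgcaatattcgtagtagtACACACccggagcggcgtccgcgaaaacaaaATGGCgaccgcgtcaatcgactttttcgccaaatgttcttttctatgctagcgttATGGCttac
mod(mdg4) upstream site: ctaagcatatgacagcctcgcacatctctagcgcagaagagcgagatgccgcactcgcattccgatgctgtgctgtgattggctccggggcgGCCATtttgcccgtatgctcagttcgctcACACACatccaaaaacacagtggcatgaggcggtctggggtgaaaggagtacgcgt
su(Hw) site: aaagctgctaagaaaaaATGGCgtcgcgct
crol intron site: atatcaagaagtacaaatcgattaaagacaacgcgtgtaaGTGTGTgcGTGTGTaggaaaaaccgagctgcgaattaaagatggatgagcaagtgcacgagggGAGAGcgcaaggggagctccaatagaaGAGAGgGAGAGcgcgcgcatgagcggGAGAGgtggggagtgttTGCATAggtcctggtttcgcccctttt
crol coding exon: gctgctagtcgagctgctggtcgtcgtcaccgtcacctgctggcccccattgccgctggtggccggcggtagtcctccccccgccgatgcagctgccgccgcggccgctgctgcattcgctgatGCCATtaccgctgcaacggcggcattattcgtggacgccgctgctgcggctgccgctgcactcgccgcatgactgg

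Of the 91 pairs of a gene and a target, 28 had a peak in every library of both conditions, 47 had none in any library, and 16 had a peak in some libraries. A pair was occupied in every rump RNAi library in 28 cases and in every control library in 36, a split by condition that was not counted over all genes. mod(mdg4) carried 10 of the 13 targets in every library, crol 5, cg and su(Hw) 4 each, Cp190 3, rump 2 and pho none, where the median over protein-coding genes was 1. Over protein-coding genes, 17.1% had at least 4 targets. Among genes of 4 to 11 kb the share was 24.9%. Among those of 11 to 30 kb, the class of crol and mod(mdg4), it was 49.6%. The 6 profiled proteins of the set occupied 21 of their 42 pairs with these genes in every library, and the other 7 targets 7 of 49, targets that also differ in how many of all genes they occupy.

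By target, CP190 had a peak in every library at 6 of the 7 genes, against 49.2% of all annotated genes, Cg at 5 against 26.3%, Pho at 4 against 13.4% and Crol at 3 against 28%. Mod(mdg4) did so at 2 genes against 8.61%, Ph at 2 against 4.86% and Su(Hw) at 1 against 13.7%. Psc, Pc, E(z), Su(z)12 and H3K27me3 were each found in every library at mod(mdg4) alone, against 1.12%, 1.9%, 0.863%, 0.945% and 4.21% of all genes, and CTCF at none against 7.25%. The 7 genes are longer than most, between the 75.4th and the 95.4th percentile of gene length, and a longer window meets more peaks. Among genes of 4 to 11 kb, the class of 5 of the 7, CP190 occupied 68.3%, Cg 45.1%, Crol 46.4% and Pho 21.6%.

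**Figure D1:**
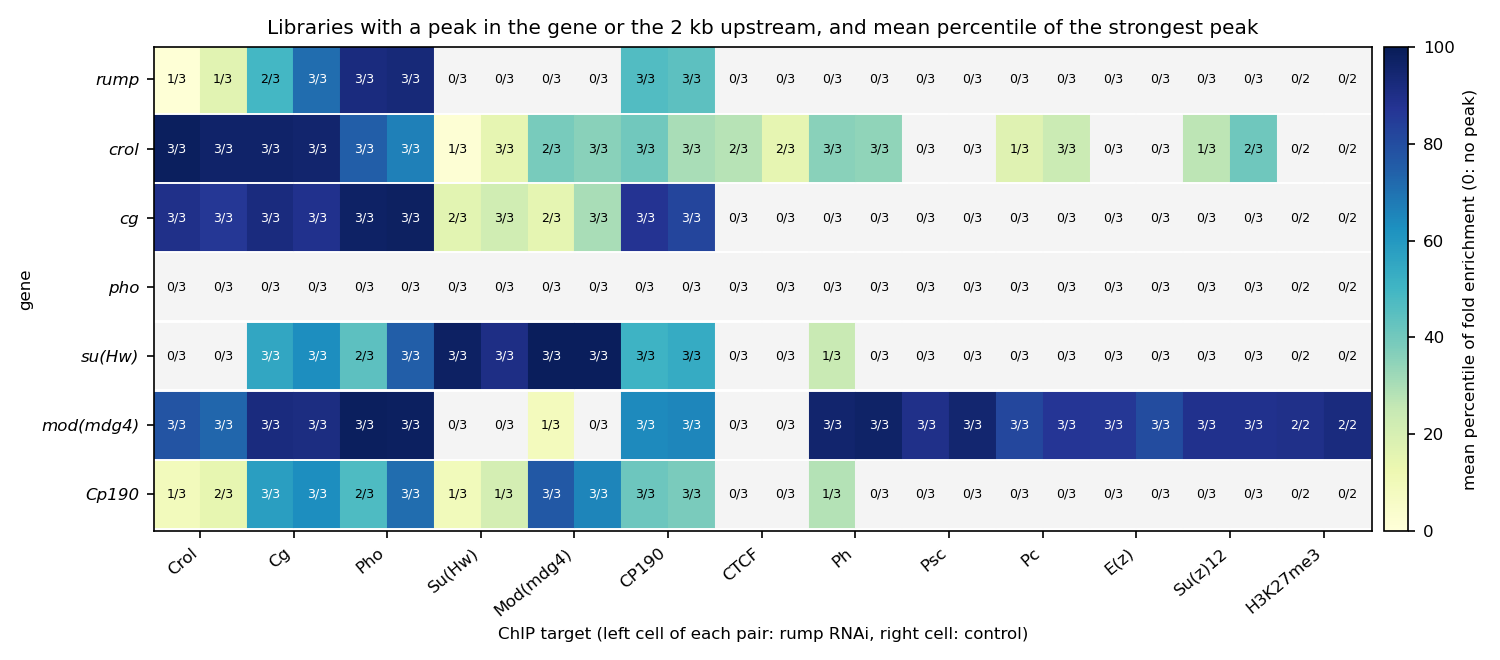
Number of libraries with a peak in each gene or its 2 kb upstream, for each of 13 ChIP targets, with the left cell of each pair for rump RNAi and the right cell for control; colour gives the mean percentile of the strongest peak within its list, 0 where there is none. mod(mdg4) is filled for 10 targets in every library, pho for none.

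Peaks were ranked within each list by fold enrichment, the ChIP signal relative to that of the input, and given as a percentile in which 100 is the strongest peak of the list. Crol lists held 9883 to 11117 peaks in rump RNAi and 7214 to 8903 in control libraries. Psc lists held 322 to 398 in rump RNAi and 723 to 881 in control libraries. A percentile depends on how many weak peaks a list holds, so for these targets percentiles of the conditions are not fully comparable. On their own genes, Crol, Cg, Su(Hw) and CP190 had a peak in every library, Pho had none, and Mod(mdg4) had a peak in 1 rump RNAi library only. The strongest Crol peak in the crol window stood at percentiles 99.6, 99.1 and 97.2 in rump RNAi libraries and 92.5, 98.8 and 97.9 in control libraries. The strongest Cg peak in the cg window stood at 89.2, 99.0 and 87.4 in rump RNAi libraries and 90.6, 88.7 and 87.0 in control libraries. All of these lay in the upper part of their lists, and the conditions overlapped.

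At su(Hw) the Su(Hw) peak stood at percentiles 98.5, 99.2 and 94.8 in rump RNAi libraries, against 82.2, 89.6 and 99.3 in control libraries. CP190 on its own gene was a weaker peak of its list, at 33.3, 43.3 and 47.6 in rump RNAi libraries and 52.6, 45.7 and 17.5 in control libraries. For both proteins the ranges of the conditions overlapped, so that at their own genes the lists separate the proteins but not the conditions.

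**Figure D2:**
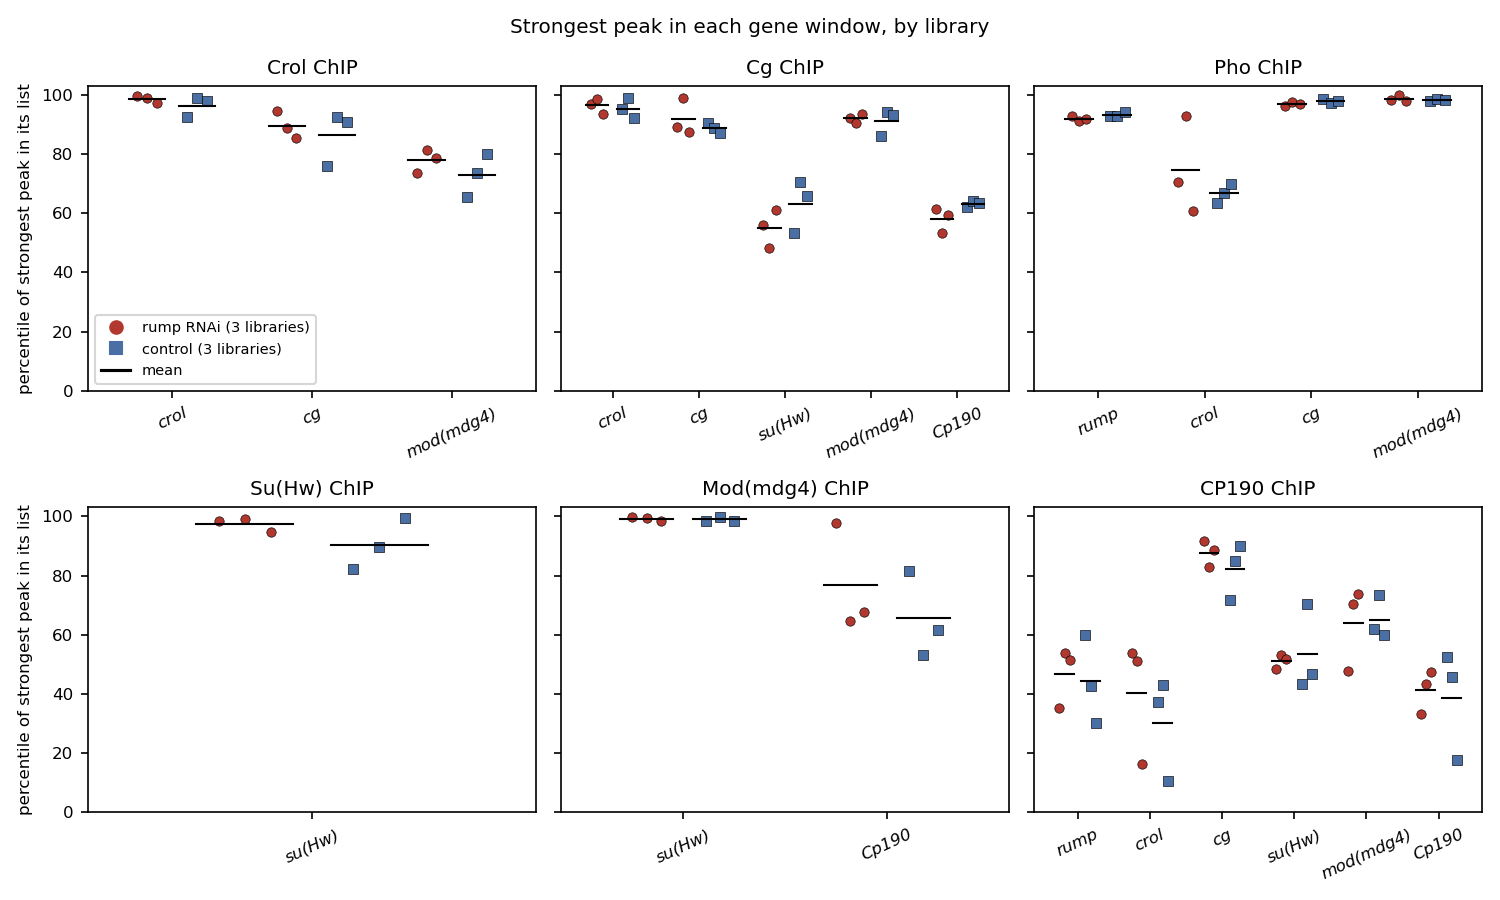
Percentile of the strongest peak in each gene window, for the 6 profiled proteins of the set and the genes with a peak in every library; circles are rump RNAi libraries, squares control libraries and bars the means of 3 libraries. Pho at rump, cg and mod(mdg4), Crol and Cg at crol and Mod(mdg4) at su(Hw) lie near the top, and CP190 at rump, crol and Cp190 lies in the middle and lower part.

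rump (FBgn0267790, chr3R:9505853-9510324, minus strand), the depleted gene, was occupied by Pho and CP190 in every library. The Pho region, chr3R:9509365-9510605, had its median summit at 9510076 in the first intron, 248 bp inside the transcript. Its fold enrichment was 16.6, 8.64 and 17.2 in rump RNAi libraries and 15.4, 13.5 and 15.0 in control libraries. The percentile was 92.8, 91.0 and 91.8 in rump RNAi libraries, against 92.8 to 94.3 in control libraries, and in percentiles the conditions did not overlap by a narrow margin. The exact two-sided permutation test over libraries gave p = 0.1 for this difference of -1.47 percentile points, the smallest value that 3 against 3 libraries allow, and an adjusted p of 1.

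The CP190 region at rump, chr3R:9510024-9510688, had its summit 50 bp upstream of the start site and stood at percentiles 35.3, 53.8 and 51.5 in rump RNAi libraries and 59.8, 42.6 and 30.3 in control libraries. A weak Cg region with its summit 42 bp upstream of the start was called in 2 rump RNAi and 3 control libraries, at percentiles of at most 31.7. A stronger Cg region farther upstream, chr3R:9512108-9513579, reached into the window from the neighbouring genes Ras85D and Rlb1, and was called in every library at percentiles 65.9 to 74.9. In rump RNAi library 2 that peak ended short of the window and did not count to rump. Crol had a peak at rump in 1 library of each condition, and no library of Su(Hw), Mod(mdg4), CTCF, a Polycomb subunit or H3K27me3 had one. The genes whose profile over the 76 libraries was most like that of rump, among 11154 protein-coding genes with a peak, were CG4074 (Pearson r = 0.96) and CG12099 (r = 0.94), a description over libraries that share targets.

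crol (FBgn0020309, chr2L:11794327-11809438, minus strand) carried the largest number of separate Crol regions of the set. The promoter region of Crol, chr2L:11806023-11809645, spans both annotated start sites and had its median summit 5 bp upstream of the inner start. Its fold enrichment was 13.8, 14.0 and 9.14 in rump RNAi libraries and 7.01, 11.8 and 14.8 in control libraries, with overlapping conditions. Cg covered nearly the same stretch, chr2L:11805947-11809653, at fold enrichments of 19.4, 21.6 and 18.7 in rump RNAi libraries and 16.7, 20.6 and 16.0 in control libraries. The median summit of Cg lay 813 bp inside the transcript from the inner start, but single libraries of both proteins had their summit at either position, such as rump RNAi library 2 with Crol at 11808099 and Cg at 11808104, and control library 3 with Crol at 11808981 and Cg at 11808958. In control library 1 the Crol summit lay at neither position but at 11806919, and the fold enrichment of 7.01 belongs to that summit. CP190 sat at the outer start site, with its summit 11 bp upstream of it, at percentiles of 16.3 to 54.0 in rump RNAi libraries and 10.5 to 43.2 in control libraries.

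Within the crol transcript a position in a coding exon was shared by many targets. Median summits of Mod(mdg4), Cg, Ph, Su(Hw), Crol and Pho lay within 31 bp of each other, between 11803021 and 11803052, and Crol, Cg and Pho were called there in every library. The other 3 were called in every control library and in 2 (Mod(mdg4)) or 1 (Su(Hw), Ph) of the rump RNAi libraries. Ph had a peak somewhere in the crol window in each of its 6 libraries, at this position or at others. Su(z)12 had a peak with its summit at 11803035 in 1 rump RNAi and 2 control libraries. The 200 bp around the Crol summit, printed above, had 69.5% G and C. A second coding exon position, 11797528 to 11797558, was shared by Pho and Crol in every library.

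The Crol summits in the intron of crol at 11804765 had fold enrichments of 5.59, 4.22 and 2.67 in rump RNAi libraries and 4.48, 4.76 and 5.33 in control libraries, which overlap. Its printed sequence holds 4 matches of GAGAG, 2 of GTGTGT and 1 of TGCATA. Crol regions with a peak in every library held GAGAG within 200 bp around the summit in 36.0% of cases and GTGTGT in 18.1%, against 21.4% and 12.4% of all 200 bp windows tiled over the arms. Pc was called over the crol promoter in 1 rump RNAi and 3 control libraries, CTCF in an intron in 2 of 3 libraries of each condition, and neither Psc, E(z) nor H3K27me3 in any library. The genes most like crol over the 76 libraries were CG4768 and Dora, both at r = 0.90.

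**Figure D3:**
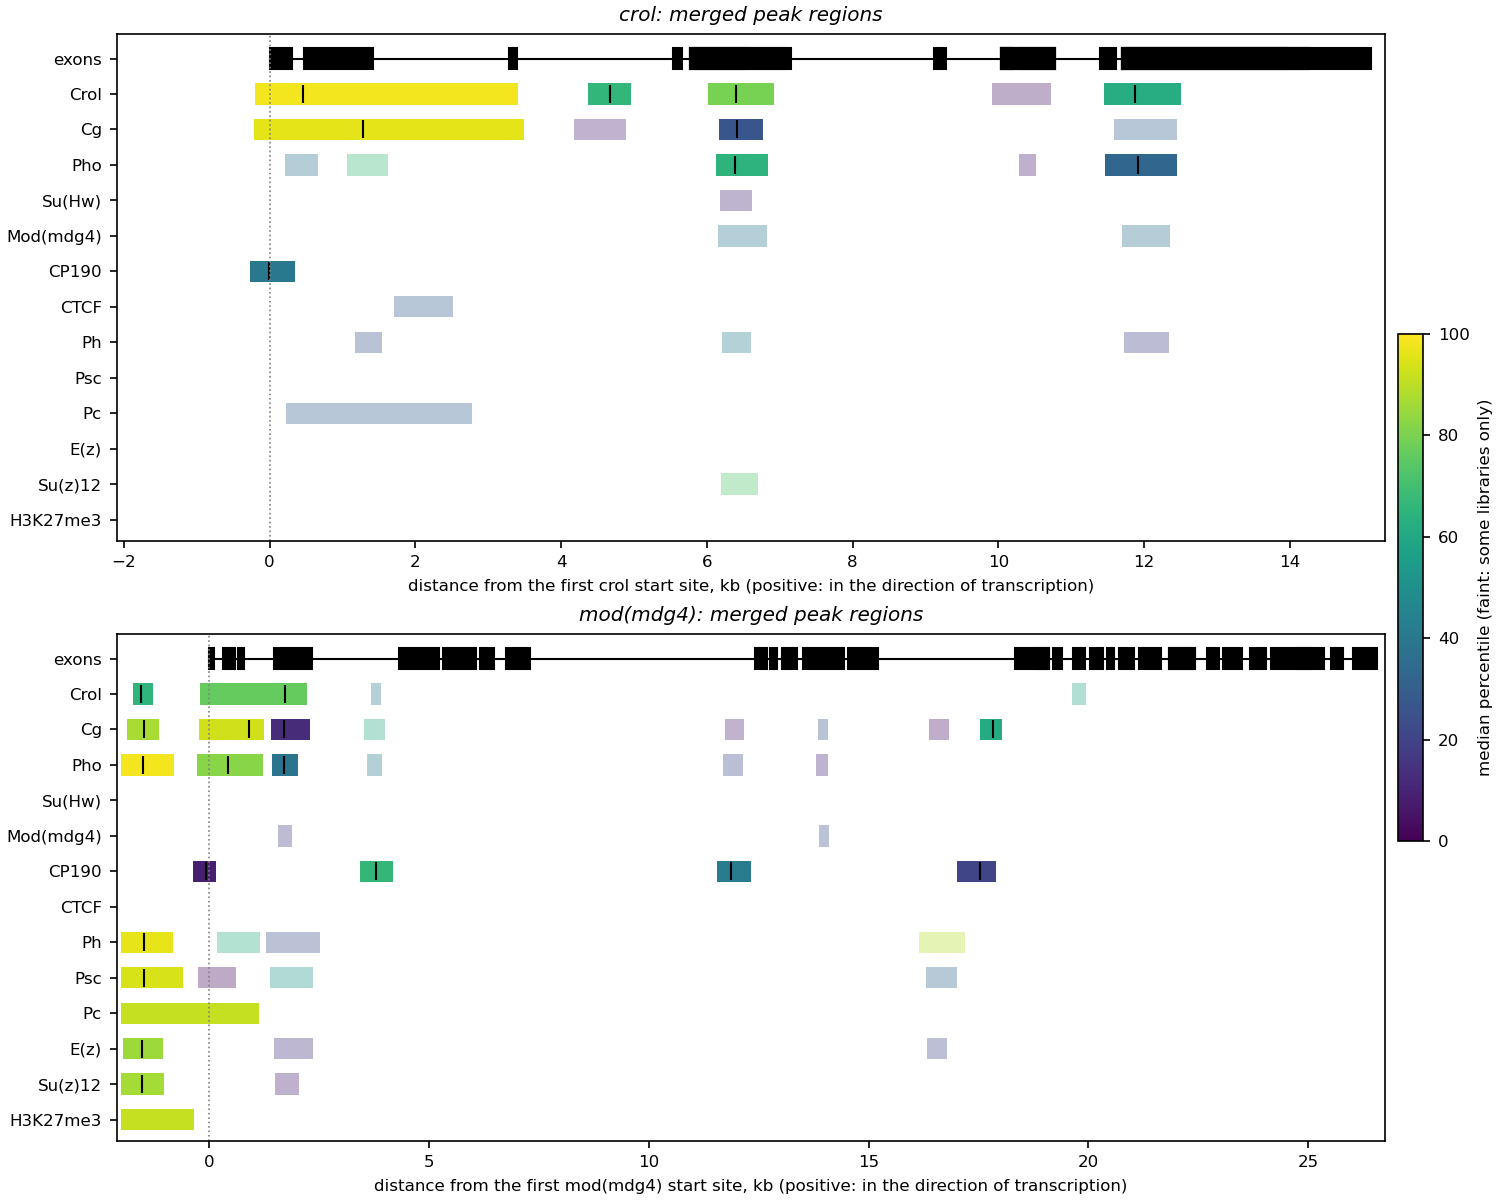
Merged peak regions of each target along crol and mod(mdg4), by distance from the first start site in kb, with exons on top, colour for the median percentile within the lists, full colour for regions called in every library, and ticks for the median summits of narrow peaks called in every library. At crol the ticks of Crol, Cg and Pho align at a coding exon near 6.4 kb; at mod(mdg4) the ticks of 7 targets align 1.5 kb upstream and the H3K27me3 domain ends before the start site.

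cg (FBgn0000289, chr2R:14173693-14182838, plus strand) was held in every library by the 3 PRE-binding proteins and CP190. Pho had its median summit 3 bp from the start site, with fold enrichments of 23.2, 12.7 and 25.9 in rump RNAi libraries and 27.1, 19.8 and 20.1 in control libraries. These were percentiles of 96.3 to 97.4 in rump RNAi libraries and 97.3 to 98.8 in control libraries, which overlap. CP190 sat with it, 34 bp upstream of the start, at percentiles of 82.9 to 91.6 in rump RNAi libraries and 71.8 to 90.0 in control libraries, its highest place at any of the 7 genes.

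Crol and Cg had their strongest signal at cg elsewhere, in the intron 2.0 kb inside the gene, with median summits 39 bp apart at 14175710 and 14175671. Cg fold enrichment in the merged region there was 14.9, 22.2 and 15.6 in rump RNAi libraries and 14.5, 13.5 and 13.9 in control libraries. The Cg summit of control library 2, with 13.5, lay elsewhere in the region, at 14174821. Crol fold enrichment was 9.09, 8.09 and 6.13 in rump RNAi libraries and 4.85, 8.58 and 10.6 in control libraries. The Cg values of rump RNAi libraries were all above those of control, but on the normalised scale the difference was 0.24 ± 0.16 (log2, SE) with an adjusted p of 0.93 by limma. The 200 bp around these summits held 6 (Cg) and 4 (Crol) matches of GTGTGT, letters found in 50.1% of Cg regions. Su(Hw) had a low peak near the cg start in 2 rump RNAi and 3 control libraries, at percentiles 17.0 to 32.0. The upstream window of cg also holds the divergent gene mRpS16, whose profile over the libraries was nearly the same (r = 0.999), and the next most like gene was CG17977 (r = 0.97).

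pho (FBgn0002521, chr4:1172469-1181628, minus strand) had no peak of any target in any of the 76 libraries. The nearest peak of any target, one of CP190, lay 25645 bp away. pho is on the small, largely heterochromatic chromosome 4, where each list had between 1 and 38 peaks. Of the 64 protein-coding genes of at least 4 kb on that chromosome, 29 (45.3%) had no peak of any target in any library, against 231 of 4212 (5.48%) over all arms.

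su(Hw) (FBgn0003567, chr3R:14304455-14308589, minus strand) carried its own protein together with Mod(mdg4), CP190 and Cg in every library. The median summits of these 4 and of Pho lay within 30 bp, between 14308101 and 14308131, in an untranslated exon about 0.5 kb inside the transcript. The fold enrichment of Su(Hw) was 26.2, 24.0 and 22.7 in rump RNAi libraries, against 11.9, 18.4 and 27.8 in control libraries. That of Mod(mdg4) was 26.7, 25.6 and 27.5 in rump RNAi libraries, against 21.1, 32.5 and 27.1 in control libraries. Mod(mdg4) was thus among the strongest of its lists in all 6 libraries, at percentiles of at least 98.5, while the conditions overlapped for both proteins.

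CP190 at this site was moderate, at percentiles of 48.4 to 53.3 in rump RNAi libraries and 43.4 to 70.5 in control libraries. Cg stood at 48.3 to 60.9 in rump RNAi libraries and 53.4 to 70.6 in control libraries, and Pho was called in 2 rump RNAi and 3 control libraries at 55.6 to 85.5. Crol had no peak at su(Hw) in any library. The 200 bp around the Su(Hw) summit held no TGCATA, letters found in 41.5% of the Su(Hw) regions called in every library and in 12.4% of tiled windows. They did hold GCCAT, which is in the printed stretch on the minus strand and was found in 37.6% of Su(Hw) regions and 35.3% of tiled windows. The neighbouring gene Polr2I starts 500 bp upstream, shares these regions through its own upstream window, and had the same profile (r = 1.00), followed by ArgRS-m (r = 0.93).

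mod(mdg4) (FBgn0002781, chr3R:21350846-21377401, minus strand) was the member with the most targets. Crol, Cg, Pho, CP190 and Ph also had peaks within the gene in every library, whereas Psc, Pc, E(z), Su(z)12 and H3K27me3 counted to it in every library only through the 2 kb upstream. For Ph, no single region within the gene was called in every library. Its peaks there in rump RNAi library 1 lay over coding blocks described below, whose source was not tested. Median summits of Psc, Cg, Ph, Pho, E(z), Su(z)12 and Crol lay within 60 bp, between 21378875 and 21378935, about 1.5 kb upstream of mod(mdg4) and just before the start of tin (tinman), a homeobox gene that is transcribed away from it. Pho had fold enrichments of 27.5, 21.0 and 28.0 in rump RNAi libraries and 24.3, 22.4 and 21.0 in control libraries. Ph had 34.5, 21.7 and 39.3 in rump RNAi libraries and 32.8, 32.2 and 38.1 in control libraries. Psc had 24.7, 37.5 and 20.1 in rump RNAi libraries and 23.5, 35.2 and 44.8 in control libraries. The values of Pho, Ph and Psc overlapped between conditions and stood above the 85th percentile of their lists throughout, from 85.2 upward.

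The PRC2 subunits had lower fold enrichments at this site than Pho, Ph and Psc, while their percentiles overlapped those of Psc. E(z) had fold enrichments of 14.1, 12.9 and 14.9 in rump RNAi libraries and 12.1, 11.9 and 8.97 in control libraries, so that all rump RNAi values were above all control values before normalisation, while the percentiles, 84.7 to 89.6 in rump RNAi libraries and 71.7 to 86.7 in control libraries, overlapped. Su(z)12 had 10.6, 5.95 and 9.44 in rump RNAi libraries and 9.12, 10.6 and 6.59 in control libraries. Its percentiles were 83.8 to 95.8 in rump RNAi libraries and 84.9 to 96.1 in control libraries. Cg stood at percentiles of 85.1 to 90.6 in rump RNAi libraries and 82.6 to 93.3 in control libraries. Crol stood at 64.3, 59.4 and 64.7 in rump RNAi libraries and 65.5, 72.8 and 75.3 in control libraries, lower in each rump RNAi library than in every control library. How many of all E(z) or Crol regions separate in this way was not counted, so neither separation sets this site apart. By limma, 0 of the 157 E(z) regions tested and 18.9% of the 4999 Crol regions passed an adjusted p of 0.05. The printed sequence holds 1 GCCAT, which continues as GCCATTT. That longer run was chosen after the sequences were seen, is also at the summits in rump and su(Hw), and occurred in 12.7% of Pho regions called in every library and 5.70% of tiled windows.

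The broad H3K27me3 domain over tin and the homeobox genes beyond it, 100556 to 103623 bp in length (all libraries together chr3R:21377740-21481362), began upstream of the mod(mdg4) start and did not reach the gene body in any library. Its edge lay 424 and 436 bp upstream of the start in rump RNAi libraries and 454 and 339 bp upstream in control libraries. The broad Pc peak at the same place began 733 and 499 bp upstream of the start in 2 rump RNAi libraries, and 1140 bp inside the gene in the third. In the control libraries it began 1079, 1144 and 1116 bp inside the gene. The H3K27me3 edges thus lay close together, and the Pc edges of the conditions overlapped.

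At the promoter and first exons of mod(mdg4), Cg had a region with its summit 921 bp inside the gene and fold enrichments of 16.4, 13.7 and 18.5 in rump RNAi libraries and 12.7, 15.8 and 16.6 in control libraries. Pho followed at percentiles of 72.0 to 85.4 in rump RNAi libraries and 79.2 to 87.0 in control libraries, and Crol at 73.5 to 81.4 in rump RNAi libraries and 41.8 to 79.9 in control libraries. CP190 had 4 regions in every library, of which the one 73 bp upstream of the start was the weakest, with a median percentile of 8.32, and one in an intron 3.8 kb inside the strongest, with 66.3. Cg shared that intron position, with a median summit 1 bp from that of CP190. Su(Hw) had no peak at mod(mdg4), and Mod(mdg4) had 2 peaks in rump RNAi library 1 only. The genes most like mod(mdg4) were tin, which shares the upstream site (r = 0.93), and Nepl8 (r = 0.93).

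Cp190 (FBgn0000283, chr3R:15270432-15275241, minus strand) had its own protein at its outer start site, with the summit 7 bp inside the transcript. The CP190 fold enrichment was 4.85, 5.46 and 6.01 in rump RNAi libraries and 5.93, 6.42 and 3.66 in control libraries. Cg was called in every library at percentiles 61.4, 53.4 and 59.5 in rump RNAi libraries and 62.2, 64.1 and 63.4 in control libraries, and these did not overlap. The exact permutation test gave p = 0.1 for this difference of -5.09 percentile points, the smallest the design allows, with an adjusted p of 1. Pho was called in 2 rump RNAi and 3 control libraries with its summit 14 bp from that of CP190. The genes most like Cp190 were CG4338, which starts across from it and shares these regions (r = 0.996), and Vha55 (r = 0.85).

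Mod(mdg4) was called at Cp190 in every library too, but over the body of the gene. Its peaks covered 100%, 98.8% and 99.9% of the coding sequence of Cp190 (3288 bp in chr3R:15271046-15274516) in rump RNAi libraries and 99.6%, 77.3% and 90.9% in control libraries, in 1 piece in 4 of the libraries and in 5 and 4 pieces in control libraries 2 and 3. The outer peak edges followed the ends of the coding sequence. In rump RNAi library 3, the peak began 1 bp before the first and ended 4 bp before the last coding position in the order of the coordinates. The fold enrichment was 19.0, 8.29 and 10.8 in rump RNAi libraries and 8.53, 6.88 and 8.82 in control libraries, which overlap. On the normalised scale the difference was 0.65 ± 0.30 (log2, SE) with an adjusted p of 0.996 by limma, and was 0.30 without rump RNAi replicate 1.

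Peaks of this shape lay over the coding sequences of all 3 insulator core genes in some libraries. Su(Hw) covered 91.4% of the coding sequence of Cp190 in rump RNAi library 2 and 100% in control library 3, and had no peak over it in the other 4. In rump RNAi library 1 of Ph, a peak covered 100% of the coding sequence of Cp190 at a fold enrichment of 17.5, and another covered 99.7% of that of su(Hw) at 8.30, beginning 9 bp after its first and ending 97 bp after its last coding position in the order of the coordinates. No other Ph library had a peak over either gene. The same Ph library covered 100% of the coding blocks of mod(mdg4) isoform T, which lie 14 kb apart on opposite strands (chr3R:21360390-21361088 and chr3R:21375060-21377032) and are joined only in the mature RNA. The mass computed from these blocks was 67.2 kDa, the size by which the insulator isoform Mod(mdg4)67.2 is named.

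Over the isoform T blocks on the plus strand, the fold enrichment in that Ph library was 25.9, and no other Ph library had a peak there. Psc had weaker peaks over the same blocks in rump RNAi libraries 1 and 2 (90.3% and 79.9% covered) and in control libraries 1 and 2 (64.4% and 86.4%), E(z) in control library 2 (69.6%) and Cg in control library 3 (62.8%). Mod(mdg4) itself had no peak over them in any library. Of the 5313 genes with at least 1500 bp of coding sequence, at least 80% was covered in at least 1 library for 7 genes (0.132%) with Mod(mdg4), also 7 (0.132%) with Su(Hw) and 18 (0.339%) with Ph. The 80% and 1500 bp were chosen after these peaks were seen. The source of the peaks was not tested. Without them, 27 of the 91 pairs were occupied in every library in place of 28, the pair lost being Mod(mdg4) at Cp190.

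**Figure D4:**
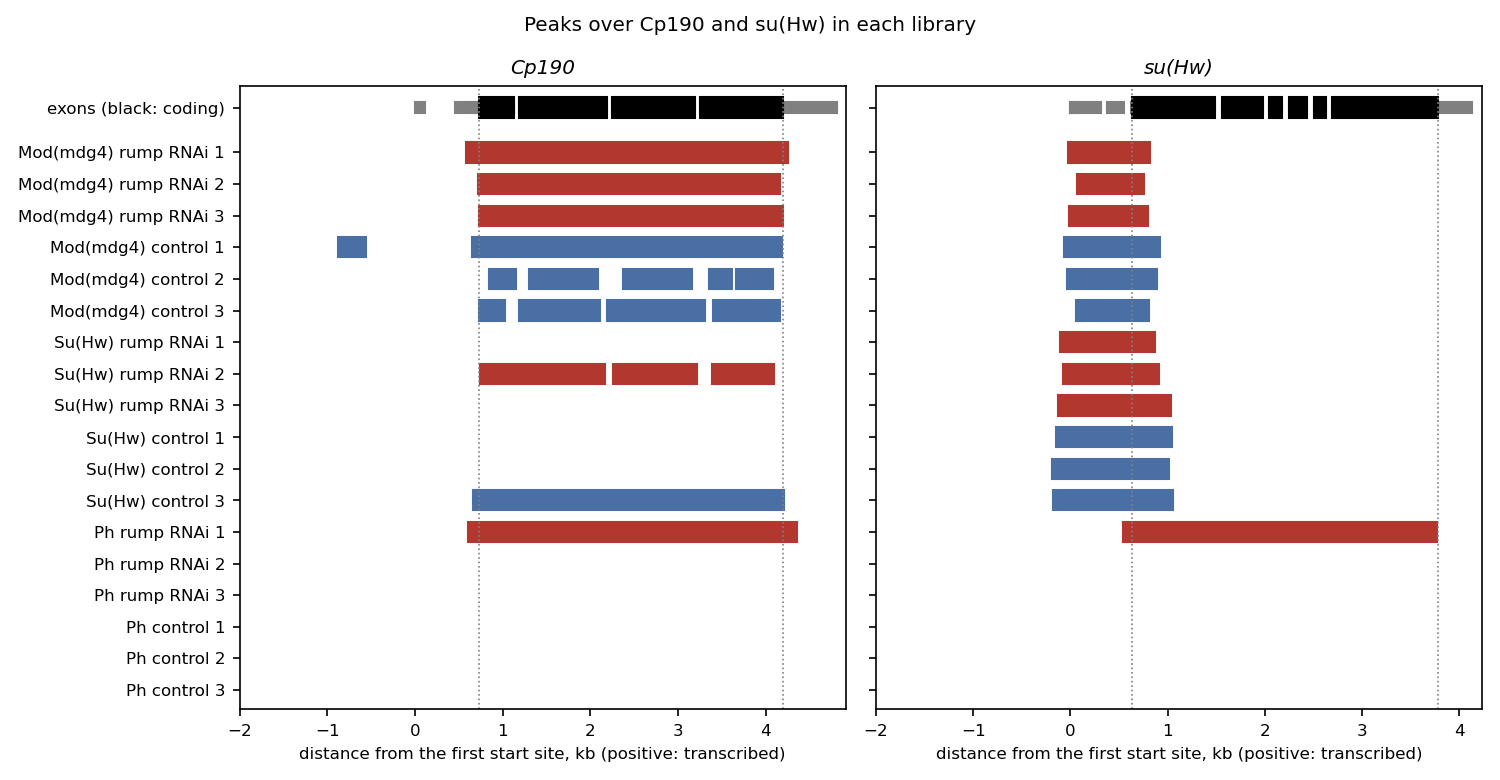
Peaks of Mod(mdg4), Su(Hw) and Ph over Cp190 and su(Hw) in each library (red for rump RNAi, blue for control), by distance from the first start site in kb, with exons in grey, coding parts in black and the ends of the coding sequence as dotted lines. Mod(mdg4) peaks lie over most of the coding part of Cp190 in each library, broken into pieces in some control libraries. Ph peaks cover the coding parts of both genes in rump RNAi library 1 only, and the Su(Hw) and Mod(mdg4) peaks at su(Hw) lie at its start in all libraries.

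Whether depletion of Rump changed occupancy of these genes was asked in 3 ways. None of the 97 regions was gained (a peak in all rump RNAi and no control library), against 1.47% of all regions, and none was lost (the reverse), against 0.726%. Of the 1020 gained regions of all targets, 980 were among the 13679 Crol regions, and only 14 of the 97 were Crol regions. With so few, the absence of gained regions does not set these genes apart. By the strongest peak in the window, 3 of the 44 pairs with a peak in any library had percentiles that did not overlap between conditions, Pho at rump, Su(Hw) at crol and Cg at Cp190, all lower in rump RNAi libraries. The same count was not made over all genes, so neither this number nor its direction can be read as a trait of these genes. For Su(Hw) at crol the percentiles were 0, 0 and 5.81 in rump RNAi libraries and 9.43 to 23.6 in control libraries, a weak peak at the shared coding exon. The smallest exact permutation p was 0.1 for 3 against 3 libraries, and the smallest adjusted p was 1, so no pair could pass the threshold of 0.05.

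The 8 pairs that were occupied in every control library but not in every rump RNAi library were Cg at rump, Su(Hw), Mod(mdg4) and Pc at crol, Su(Hw) and Mod(mdg4) at cg, and Pho at su(Hw) and Cp190. For Cg at rump, the library without a count was rump RNAi 2, whose upstream peak (percentile 66.9) lay just outside the window. No pair was occupied in every rump RNAi library but not in every control library. How many of all genes go either way was not counted, so the 8 pairs do not set these genes apart from others. Leaving out replicate 2 of every rump RNAi target left 33 pairs occupied in all remaining rump RNAi libraries, against 28 with it. With the lists of each target cut to equal length the counts were 27 pairs in rump RNAi and 30 in control libraries.

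For the 43 regions with a peak in every library of their target, log2 fold enrichment was quantile normalised and tested by limma with Benjamini-Hochberg adjustment over all such regions of the target, so that each difference is relative to the other shared regions. It was higher in rump RNAi at 28 and lower at 15, with a median size of 0.11, and 1 of the 43 passed an adjusted p of 0.05. The split by direction was not counted over all tested regions, and regions of several targets at one site count separately. The called region was Crol over the coding exon of crol, chr2L:11802511-11803427, 1 of 7 Crol regions in the windows, against 18.9% of the 4999 Crol regions tested. The number of Crol regions called depended on single libraries, with 0 of 5222 by limma without rump RNAi replicate 2 (1188 at an unadjusted p below 0.05), 6 of 5150 without rump RNAi replicate 3 and 325 of 6161 without control replicate 1. Crol fold enrichment there was 6.69, 8.58 and 7.1 in rump RNAi libraries and 3.72, 5.51 and 6.18 in control libraries, and every rump RNAi value was above every control value. The difference was 0.50 ± 0.17 (log2, SE) with an adjusted p of 0.040 by limma.

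The region had 62.3% G and C, and after each library was corrected for the GC content of its regions the difference was -0.018 with an adjusted p of 0.97 by limma, while none of the 4981 Crol regions with sequence passed, 871 of them having an unadjusted p below 0.05. Under median centring the difference was 0.46 (adjusted p 0.066), and without any single one of 5 of the 6 libraries, all but rump RNAi replicate 1, it was 0.46 to 0.52, so that the threshold was missed while the size stayed similar. Of the other Crol regions, the one upstream of mod(mdg4) was lower in rump RNAi by limma (-0.42 ± 0.17 on the log2 scale, adjusted p 0.074), and the second coding exon of crol gave 0.42 ± 0.20 (adjusted p 0.12). With GC correction these were -0.14 and 0.08.

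None of the 36 regions of the other targets passed by limma, where 1 had an unadjusted p below 0.05, the Mod(mdg4) region over Cp190. The share called among all regions was 5.34% for H3K27me3 and 0% for each of Cg, Pho, Su(Hw), Mod(mdg4), CP190, CTCF, Ph, Psc, Pc, E(z) and Su(z)12, with between 2 (E(z)) and 203 (Su(Hw)) regions at an unadjusted p below 0.05. The smallest adjusted p among these 36 was 0.82. The standard errors, 0.17 on the log2 scale at the median CP190 region of 7085 and 0.31 at the median Pho region of 2144 tested, set the size of a difference that these lists could resolve.

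**Figure D5:**
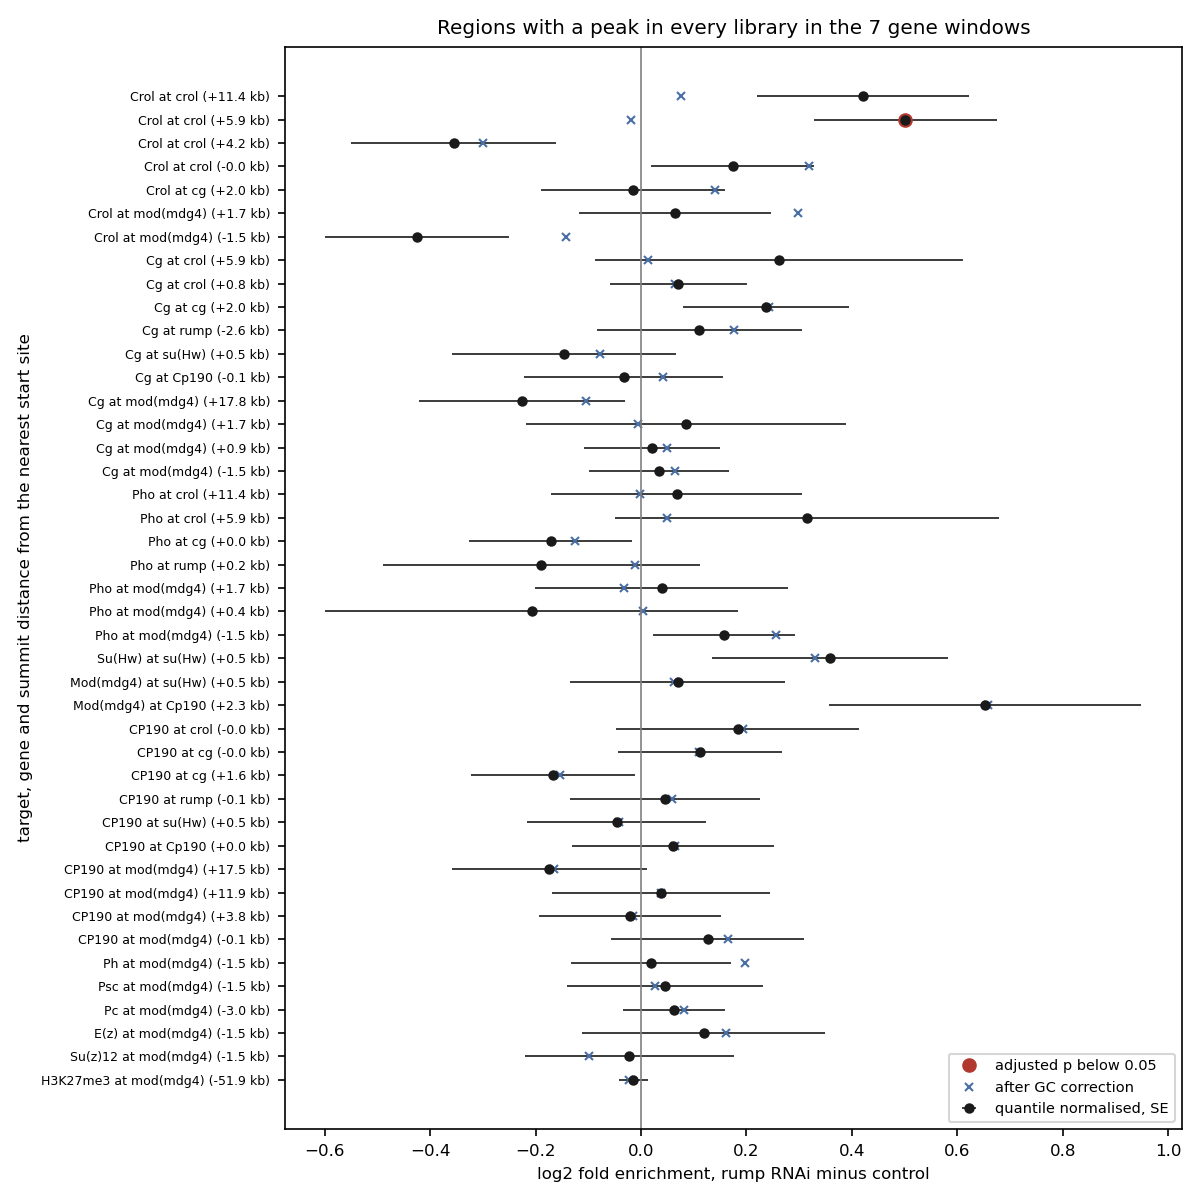
Difference in log2 fold enrichment, rump RNAi minus control, for the 43 regions with a peak in every library, labelled by target, gene and the distance of the summit (the peak centre where Pc or H3K27me3 was the target) from the nearest start site; points with bars are quantile-normalised differences with the standard error, crosses the differences after GC correction. The point ringed in red is Crol over the coding exon of crol, at 0.50, whose cross lies at -0.018.

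Genes of related proteins were counted by the same rule, with no account of gene length, and the shares of all genes given above apply to these counts too. A list of 11 other genes of PRE proteins held DNA-binding proteins and also Polycomb proteins such as Su(z)2, a relative of Psc. Cg was found in every library at 10 of these 11 genes, CP190 at 11, Crol at 7 and Pho at 6. Of them grh (grainy head, a transcription factor) was occupied by 12 targets, Su(z)2 by 10, and Trl, which encodes GAGA factor, by 5. Of the 7 genes of the other profiled proteins, Crol was at 5 and Pho and Cg at 4 each, and Psc was occupied by 8 targets, ph-d by 6 and Pc by 5. CP190 was at 9 of 9 genes of other insulator proteins and Crol at 3, with pzg occupied by 5 targets, pita by 4 and BEAF-32 by 3. Of the 9 hnRNP genes matched from 10 symbols, Cg, Pho and CP190 were each at 8, Crol at 7 and Su(Hw) at 5. Over all genes these shares were 26.3% for Cg, 13.4% for Pho, 49.2% for CP190, 28% for Crol and 13.7% for Su(Hw). Syp and HnRNP-K were occupied by 7 targets each and heph by 6.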

How the data were processed

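The authors trimmed reads with Trim Galore 0.6.7, aligned them with Bowtie2 2.5.3 to dm6, dropped rRNA reads and those of low mapping quality, removed duplicates with Picard and used MACS2 2.2.7.1 to call each library against an input, so no list pools replicates. The deposited fold enrichment is a ratio of ChIP over input, and the deposited −log10 q values are those of MACS2. The lists also give the summit as a position that the authors' MACS2 wrote relative to the peak start. Titles of control inputs often name several targets, such as Crol, Ph, Pho and Cg together, or Su(Hw) and Mod(mdg4) together. Libraries of such targets share an input, so their peaks and fold enrichments are not fully independent. Read counts are not in the lists, so the depth is unknown. The lowest −log10 q was 2.02 in a Su(Hw) list and 2.17 in a Mod(mdg4) list, and at least 4.03 in the lists of the other targets, so these lists reach weaker peaks. For 17 inputs the title says rump depleted and the treatment label GFP dsRNA. They enter no comparison here, but the fold enrichments of rump RNAi libraries rest on inputs of that condition, and which label is right was not tested.

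Gene models came from Ensembl release 115 (BDGP 6.54) and sequence from RefSeq release 6 of the same assembly. Every peak on the chromosome arms and Y lay within their lengths, and 0.671% of peaks lay on other scaffolds, which count in the ranks but meet none of the 7 windows. Narrow peaks and the broad peaks of Pc and H3K27me3 sharing 1 bp were merged, and the highest fold enrichment of a library in a region was used. Regions with a peak in every library were tested by limma 3.58.1 (eBayes with trend, R 4.3.3), which was tested on simulated data, and percentiles by exact permutation (scipy 1.17.1). Among the targets with 3 libraries per condition, same-numbered libraries deviated together (every correlation above 0.1) for Pho and Psc, for which the block changed no call. For H3K27me3, with 2 libraries per condition, the correlation was 0.255. With the block 1 of its 206 regions was called by limma, against 11 without it. The members, gene lists and tests were chosen with earlier results of these data known. Regions were named when among the 3 highest in a window, past the threshold or at the start site.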

Additional observations from a re-analysis of the deposited data

How the results depend on the processing

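The counts of 28 occupied pairs in all, 28 in rump RNAi and 36 in control libraries stayed within 1.5 times under every alternative, among them a window of 500 bp around start sites (20, 20 and 26). Leaving out one replicate number of a condition, in all targets together, gave 28 to 33 pairs in all, 28 to 33 in rump RNAi and 36 to 39 in control libraries, and without the first rump RNAi library of Ph, added after seeing the data, they were the same. No region was gained or lost, but 1 was gained at -log10 q of at least 10. The same leave-outs gave 0 to 1 gained and 0 to 4 lost regions, the 4 without rump RNAi replicate 2, 1 each for Pho, Su(Hw), Ph and Pc. The count of 1 changed region became 0 under median centring, percentiles, peaks in at least 2 libraries of each condition, GC correction and the replicate block with GC correction, and 3 under the replicate block. With one replicate left out it ranged over 0 to 2. Without rump RNAi replicate 2 the 1 call was Ph inside mod(mdg4), at fold enrichments of 19.5 and 7.56 in rump RNAi libraries 1 and 3, of which library 1 is the one whose peaks cover the isoform T coding blocks. Crol at the crol coding exon reversed to -0.018 with GC correction, alone or with the replicate block. Whether the replicate numbers pair the Crol libraries is not settled. Their same-number correlations were 0.07 to 0.25, and the own number was the best match for replicates 1 and 2 but not 3. With the replicate block 1458 of the 4999 Crol regions were called, against 947 without it. The cause of these changes was not tested. Peak lists give presence and rank, so weaker occupancy below the calling threshold is not seen.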

Other observations

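Summits of several targets coincided at a few positions, in libraries that in part share inputs and so are not fully independent. At su(Hw) 5 targets, at the crol coding exon 6, and at mod(mdg4) 7 upstream and 6 in the coding exon near 1.7 kb had median summits in 1 group with gaps of at most 150 bp. In that exon of mod(mdg4), between 21375647 and 21375757, only Crol, Cg and Pho were called in every library, with Crol at fold enrichments of 5.04, 6.62 and 5.32 in rump RNAi libraries and 3.13, 5.52 and 7.17 in control libraries. The 200 bp around the summits of Crol, Cg and Pho there held 62.0% to 64.0% G and C and none of the 4 searched motifs.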
